A study of Mus musculus with 23 samples.

Results

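The C1q chains are the 3 genes C1qa, C1qb and C1qc, measured here by 4 probe sets in the hippocampus of young and middle-aged mice. The members were found as the probe sets whose platform annotation names one of these genes and no other, out of 12488 probe sets on the array and 8251 genes with a probe set of their own. C1qa (Entrez 12259) and C1qc (Entrez 12262) have 1 probe set each, and C1qb (Entrez 12260) has a bright and a dim one. RNA of the whole hippocampus came from 23 male mice of the strain C57BL/6JNIA, 14 aged 15 months and 9 aged 2 months, and each mouse had an array of its own. Mice of both ages had learned the Morris water maze, in which a hidden platform is found from spatial cues, before the hippocampus was taken, so no untrained mouse serves as a reference. The question of the comparison is how transcript levels change from young adulthood to middle age. The running numbers of the mice do not overlap between the ages, so an order of handling, if there was one, cannot be told apart from age.

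C1q is the recognition molecule of the classical complement pathway. Its A, B and C chains, each with a collagen-like stalk and a globular head, assemble into a bundle whose heads bind antibody, pentraxins and cell surfaces, and whose stalks carry the proteases C1r and C1s. In the brain microglia are the main source of C1q, all of its chains are needed for the assembled protein, and C1q and C3 are known for marking synapses that microglia remove during development. C1q protein is also known to accumulate in the ageing rodent hippocampus.

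The chain genes lie side by side on mouse chromosome 4 in the order C1qb, C1qc and C1qa, with no other gene between them in the RefSeq table. The 250 bases before the start of C1qb (GRCm38.p6, chr4:136886201-136886450, minus strand) and of C1qc (chr4:136892915-136893164, minus strand) are shown. The promoter set used here held no entry for C1qa, so its promoter is not shown. The array files name no genome build. Capitals mark matches on either strand to GAGGAA, a core of sites for the myeloid factor PU.1, its longer form GAGGAAGT, which holds the shorter one, or TGCTGA, a Maf half-site.
C1qb: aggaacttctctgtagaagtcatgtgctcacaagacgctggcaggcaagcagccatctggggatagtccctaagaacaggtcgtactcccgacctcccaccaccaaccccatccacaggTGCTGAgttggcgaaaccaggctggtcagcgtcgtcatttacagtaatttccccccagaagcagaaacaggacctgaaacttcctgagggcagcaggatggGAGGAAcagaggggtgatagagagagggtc
C1qc: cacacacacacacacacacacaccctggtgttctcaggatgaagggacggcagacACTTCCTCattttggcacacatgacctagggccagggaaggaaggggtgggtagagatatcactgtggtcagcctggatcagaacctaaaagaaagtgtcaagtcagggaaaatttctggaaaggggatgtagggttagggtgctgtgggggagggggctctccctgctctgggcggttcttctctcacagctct
The window of C1qb held GAGGAA 25 to 30 bases before the start and TGCTGA 126 to 131 bases before it. That of C1qc held GAGGAAGT on the opposite strand, 188 to 195 bases before the start, and no TGCTGA. Of 32851 mouse promoter windows of this length 23.3% held GAGGAA, 2.44% GAGGAAGT and 16.1% TGCTGA. These are letter matches and show no binding.

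The arrays had been scaled alike, with a trimmed mean signal of 500.3 on each, and their median signals lay between 154 and 188. One array, that of 15-month replicate 13, was unlike the rest: its correlation with them had a median of 0.947, against 0.967 to 0.977, and its 25th percentile was 53.4, against 30.2 to 41.8. Of 14 hippocampal neuron markers 12 were bright enough to be tested, among them Wfs1 of field CA1, Neurod6 of pyramidal cells and Calb1 of granule cells, while Prox1 and Gad2 were below the filter. The labels call each mouse a biological replicate and give no batch or pairing. Levels of different probe sets cannot be compared with each other, since each has its own probes.

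C1qb and C1qc rose at 15 months, by 1.26-fold and 1.24-fold, while C1qa, 1.16-fold higher, did not pass the test and the dim C1qb probe set had a difference of 0.00 on the log2 scale. Of the 4 C1q probe sets 2 were called higher and 0 lower at a false discovery rate of 0.05. Of all 7453 probe sets tested 0.335% were called higher and 0.0403% lower. At an unadjusted p under 0.05, 3 of the 4 were higher, against 5.89% of all tested. For all 4 the signals of the ages overlapped, and only 0.0537% of the probe sets tested had no overlap in either direction. The median log2 change of all probe sets tested was -0.02, and 44.99% of them had a change above 0.

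**Figure D1:**
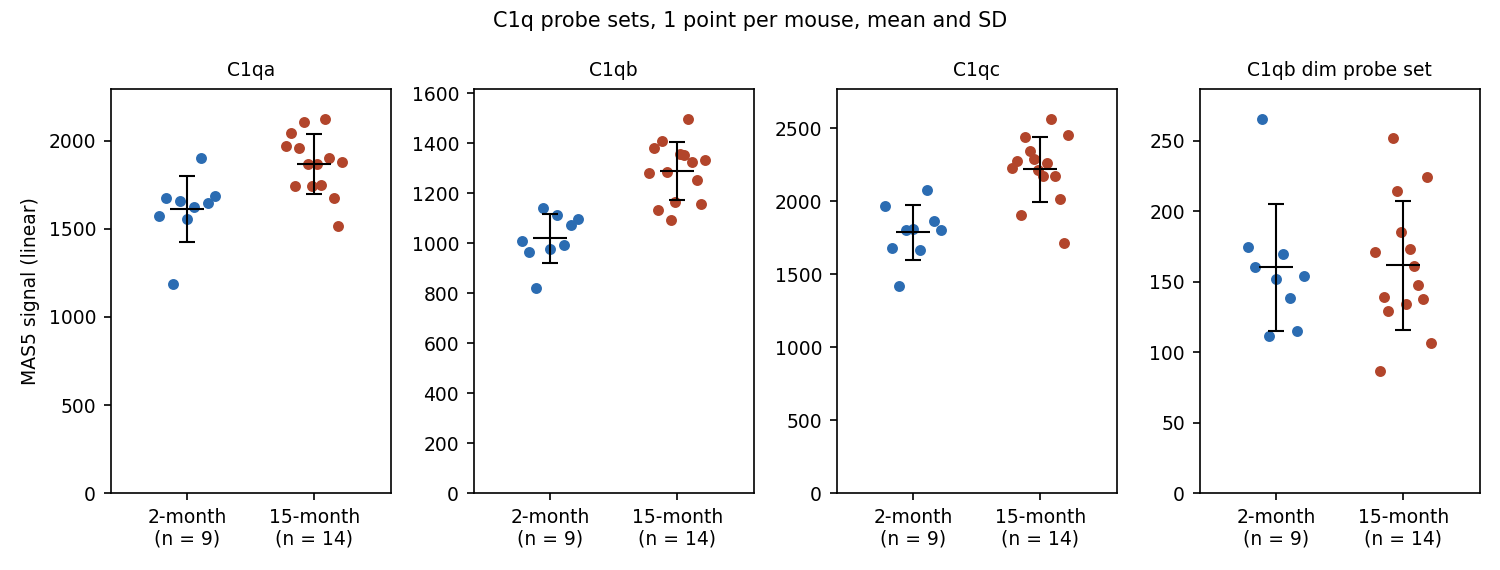
MAS5 signal on a linear scale (vertical axis, from 0) of the 4 C1q probe sets by age; each point is 1 mouse, and bars give the mean and SD of the 9 mice of 2 months and the 14 of 15 months. The 15-month mice lie mostly above the 2-month mice for C1qb and C1qc, partly so for C1qa, and on the same level for the dim C1qb probe set; 2-month replicate 3 is the lowest point of its age for the bright probe sets and the highest for the dim one.

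C1qb encodes the B chain, which pairs with the A chain through a disulphide bond. Its bright probe set read 820 in the lowest, 1009 in the median and 1141 in the highest mouse of 2 months, and 1093, 1306 and 1497 at 15 months. The ranges met over a narrow band, with 12 of 14 mice of 15 months above every 2-month mouse and 6 of 9 mice of 2 months below every 15-month mouse. The mean rose from 1020 ± 98.2 (SD, n = 9) to 1288 ± 116 (SD, n = 14), a 1.26-fold change (95% interval 1.15 to 1.37). On the scale log2(signal + 16) this was a change of 0.33 ± 0.06 (SE; limma adjusted p = 0.00695), the 11th lowest p of 7453, and 14 of 14 mice of 15 months lay above the 2-month mean.

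C1qc encodes the C chain. Its signal was 1421 in the lowest, 1804 in the median and 2079 in the highest mouse of 2 months, and 1714, 2242 and 2562 at 15 months. Of the 15-month mice 11 of 14 were above every 2-month mouse, and 13 were above the 2-month mean, the exception being replicate 13. The mean rose from 1787 ± 188 to 2216 ± 223, a 1.24-fold change (95% interval 1.13 to 1.36), or 0.31 ± 0.07 on the log2 scale (SE; limma adjusted p = 0.0223). This call was lost without 2-month replicate 2 (adjusted p = 0.0546) or 3 (0.0649) and with an exact Mann-Whitney test (0.0536). Without the array that stood apart the change was 0.34 (adjusted p = 0.00538).

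C1qa encodes the A chain. It read 1189 in the lowest, 1647 in the median and 1899 in the highest mouse of 2 months, and 1515, 1874 and 2123 at 15 months. The overlap was wider than for the other chains, with 6 of 14 mice of 15 months above every 2-month mouse and 13 above the 2-month mean. The means were 1611 ± 187 at 2 months and 1867 ± 171 at 15 months, a ratio of 1.16 (95% interval 1.06 to 1.27) and a log2 difference of 0.21 ± 0.07 (SE). It ranked 134th by p and did not pass over all probe sets (limma adjusted p = 0.162). It did not pass without any single mouse or in any other setting tried either, with adjusted p between 0.0891 and 0.303.

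The dim C1qb probe set showed no difference that could be told from 0. Its signals ran from 111 over a median of 154 to 266 at 2 months and from 87.0 over 155 to 252 at 15 months, so that the ranges lay on top of each other. The means were 160 ± 45.3 and 162 ± 45.9, with a log2 difference of 0.00 ± 0.15 (95% interval -0.30 to 0.31; limma adjusted p = 0.992). That interval is wide: the value of the bright probe set, 0.33, lay just above its upper bound. The suffix of this probe set marks a design with fewer unique probes than usual. Its coefficient of variation within an age was 28.3% to 28.4%, against 9.01% to 11.6% for the bright C1q probe sets, and its mean level lay at the 49.2 percentile of non-control probe sets, against 86.6 to 92.5.

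Whether the chains changed by unequal amounts was tested on the difference between probe sets within each array, which cancels any scaling of the whole array. C1qb minus C1qc, on log2(signal + 16), was -0.80 ± 0.15 (SD) in the 2-month and -0.77 ± 0.12 in the 15-month mice, a shift of 0.02 (exact two-sided permutation p = 0.682, adjusted p = 0.682 over 6 pairs). The difference of C1qa was smaller than those of both, but not past the threshold after adjustment. C1qa minus C1qc went from -0.15 ± 0.10 to -0.24 ± 0.09 (shift -0.09, exact permutation p = 0.0284, adjusted p = 0.105), which passed only without 2-month replicate 1 (adjusted p = 0.0436). C1qa minus C1qb went from 0.65 ± 0.13 to 0.53 ± 0.12 (shift -0.12, exact permutation p = 0.0349, adjusted p = 0.105). The 3 pairs with the dim C1qb probe set had adjusted p of 0.189 to 0.354 in the same exact test, the shift of C1qb minus its dim probe set being 0.33. Unequal changes of the 2 probe sets of C1qb were thus not shown.

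Some mice were high or low for several chains, and others differed between the chains. Of the latter, 15-month replicate 6 had the lowest C1qb of its age but ranked 5 of 14 for C1qc. Likewise 2-month replicate 4 had the highest C1qb of its age but ranked 6 of 9 for C1qc. Among 15-month mice, replicate 10 had the highest signal of C1qa, C1qb and C1qc, and replicate 13, on the array that stood apart, the lowest of C1qa and C1qc. Among 2-month mice, replicate 3 had the lowest signal of each bright probe set, at 1189 for C1qa, 820 for C1qb and 1421 for C1qc. Its 25th percentile, 41.8, was among the 3 highest of all arrays. All probe sets of a mouse share its array, and the part of the array in these joint deviations was not tested. When the model took up each array's 25th percentile as a covariate, the log2 changes with age were 0.31 for C1qb (limma adjusted p = 0.00908), 0.27 for C1qc (0.0148) and 0.19 for C1qa (0.147).

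Correlations between mice were computed within each age, for every pair of C1q probe sets and for each with the mean of microglia markers, 20 in all. At 15 months C1qa and C1qc had r = 0.83 (permutation p = 3.9e-04, adjusted p = 0.0078) and Spearman rho = 0.72 (permutation p = 0.00453, adjusted p = 0.0906, n = 14). Without the mice farthest from the median of C1qa, replicates 10 and 13, r was 0.60, and without replicate 13 alone 0.69 with an adjusted p of 0.0840. C1qb with C1qc had r = 0.64 (permutation p = 0.0132, adjusted p = 0.0664) and rho = 0.58 (permutation p = 0.0330, adjusted p = 0.165), and r = 0.76 without replicates 3 and 6. C1qa with C1qb had r = 0.61 (permutation p = 0.0199, adjusted p = 0.0664) and rho = 0.66 (permutation p = 0.0135, adjusted p = 0.135), and r = 0.42 without replicates 10 and 13. Without replicate 6 alone both of these passed, at r = 0.80 (adjusted p = 0.0077) and r = 0.72 (adjusted p = 0.0380).

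At 2 months the relations between the chains were weaker without replicate 3. C1qa with C1qc had r = 0.82 (exact permutation p = 0.0166, adjusted p = 0.0664, n = 9) but rho = 0.35 (exact permutation p = 0.359, adjusted p = 0.611), with r = 0.47 without replicate 3 alone and -0.43 without replicates 3 and 7. C1qa with C1qb had r = 0.69 (exact permutation p = 0.0677, adjusted p = 0.150) with rho = 0.32 (exact permutation p = 0.410, adjusted p = 0.611), and without replicate 3 alone r was -0.07. C1qb with C1qc had r = 0.52 (exact permutation p = 0.155, adjusted p = 0.238) with rho = 0.08 (exact permutation p = 0.843, adjusted p = 0.855), and without replicate 3 alone r was -0.25. The dim C1qb probe set had r of -0.79 to -0.69 with the bright probe sets at 2 months (exact permutation adjusted p 0.0664 to 0.131), and replicate 3 held its highest signal. Its rho with them was -0.52 to -0.43 (exact permutation adjusted p 0.467 to 0.555). Without replicates 3 and 7, or 3 and 4, r was -0.36 to -0.11. At 15 months it had r = -0.47 with C1qb (permutation p = 0.0867, adjusted p = 0.158) and rho = -0.54 (permutation p = 0.0499, adjusted p = 0.200). With C1qa and C1qc its r was then -0.20 and -0.22.

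**Figure D2:**
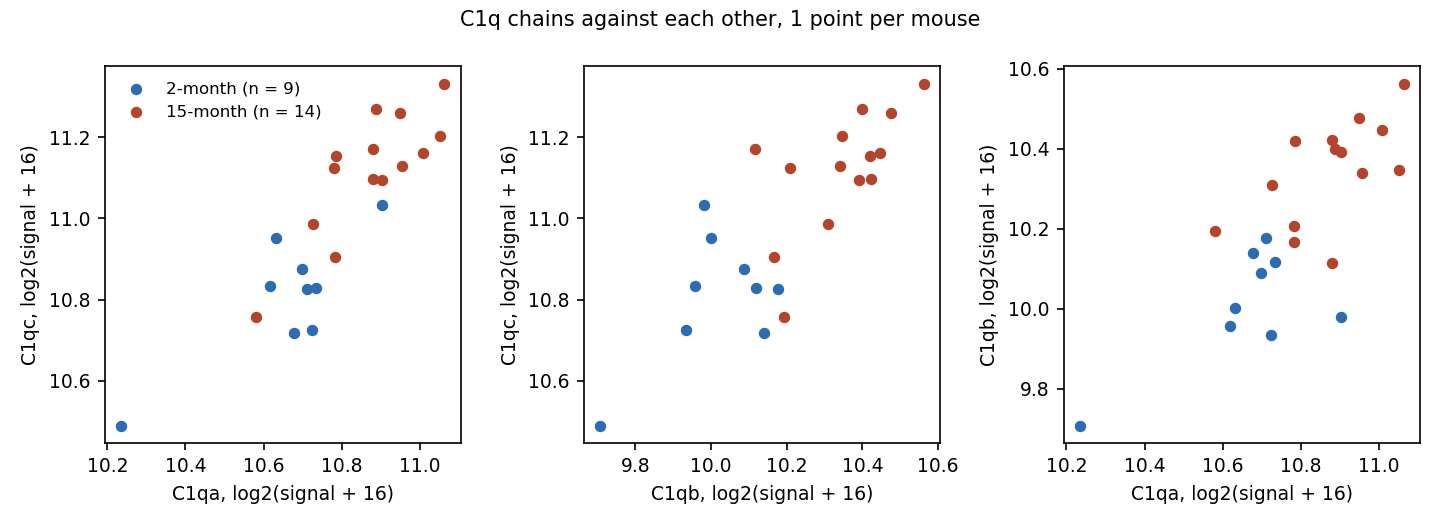
Signals of the C1q chains against each other as log2(signal + 16), 1 point per mouse, 9 of 2 months and 14 of 15 months. C1qa and C1qc lie closest to a line at 15 months (r = 0.83), and 2-month replicate 3 stands alone at the lower left of each panel.

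By the correlation of residuals from the age means over all 23 mice, a description that the array effects of a mouse can raise, C1qc was the gene most like C1qa among 5679 genes (r = 0.82), and C1qa the one most like C1qc. The others nearest to C1qa were Ints5 of the Integrator complex (0.81), the endophilin gene Sh3gl1 (0.77), the methyltransferase gene Smyd2 (0.75) and Phc2 of the Polycomb complex (0.74). Those nearest to C1qc after C1qa were the translation factor gene Eif3l (0.76), Tmem43 (0.74), the proteasome gene Psmd7 (0.73) and the phosphofructokinase gene Pfkl (0.72). Nearest to C1qb were the RNA polymerase subunit gene Polr2f (0.76), the ganglioside synthase gene B4galnt1 (0.74), the mitochondrial ribosome gene Mrpl20 (0.74), Coq9 of coenzyme Q synthesis (0.70) and the nuclear receptor gene Nr2f6 (0.70), while C1qa was at rank 13 (0.65) and C1qc at rank 23 (0.59). Of the 50 genes most like C1qa 18 were among the 50 most like C1qc, and 5 among those most like C1qb. None of the 13 genes named besides the chains was called between the ages, with limma adjusted p of 0.431 to 0.979.

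Of the microglia markers Tyrobp, the signalling adaptor of several microglial receptors, was the most like each chain, with r of 0.63 with C1qa, 0.63 with C1qb and 0.59 with C1qc, at ranks 29, 18 and 60. Its difference between the ages did not pass (0.26 ± 0.08, limma adjusted p = 0.179). Selplg, a selectin ligand chosen here after its value was seen, followed for C1qa (0.60) and C1qb (0.54), and Ctss, cathepsin S, for C1qc (0.49). Of the 19 markers tested 12 had r above 0 with C1qa, 12 with C1qb and 11 with C1qc, with medians of 0.07, 0.03 and 0.05, against 0.01, 0.01 and 0.00 over all genes. Among the 10% of genes most like C1qa were 4 of the 19, with 6 for C1qb and 5 for C1qc. Csf1r, the receptor microglia need to survive, had r of 0.07, 0.07 and 0.12, and Cx3cr1, the fractalkine receptor, r of -0.17, 0.01 and 0.05.

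A probe set annotated to 2 complement genes, which cannot be told apart by it and so are not named, rose at 15 months. It read 703 in the lowest, 847 in the median and 1088 in the highest mouse of 2 months, and 1506, 1750 and 2199 at 15 months. All 14 mice of 15 months lay above every 2-month mouse, and the means were 1809 ± 230 and 867 ± 129 (log2 change 1.05 ± 0.08, limma adjusted p = 1.39e-09), a larger log2 change than that of any C1q chain. It was singled out after its value was seen, and the other 3 complement probe sets with several symbols were below the filter. Among complement genes with a probe set of their own, C1qb and C1qc alone were called. Of 25 listed complement genes and regulators with a probe set of their own 11 were bright enough, the C1q chains among them, and 2 of the 11, C1qb and C1qc, were called higher and 0 lower. Of the 8 others with a probe set of their own 7 had changes above 0, against 44.99% of all probe sets tested. The 8 had a median of 0.15 on the log2 scale, and 0 were called. C1ra, a protease carried by C1q, had a log2 difference of 0.20 ± 0.12 (limma adjusted p = 0.486). Serping1, the inhibitor of C1r and C1s, had one of 0.14 ± 0.16 (adjusted p = 0.753), and C2, cleaved by C1s, one of 0.12 ± 0.19 (adjusted p = 0.824). The inhibitor of the membrane attack complex Cd59a was at 0.24 ± 0.18 (adjusted p = 0.602) and Clu, clusterin, at 0.02 ± 0.08 (adjusted p = 0.941). The alternative and lectin pathway genes Cfb, Cfp, Masp1, Masp2, Mbl1 and Mbl2 were among those below the filter.

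Receptors and binding partners of C1q and complement showed no call, with 9 of 20 genes tested and a median of 0.03. Lrp1, an endocytic receptor that also takes part in C1q uptake, had a log2 difference of -0.06 ± 0.04 (limma adjusted p = 0.580), and Itgax, a chain of complement receptor CR4, one of 0.27 ± 0.20 (adjusted p = 0.594). Itgam, the chain of CR3 through which microglia bind C3 fragments, was below the filter with a signal of 38.1 ± 20.04 at 15 months and 30.8 ± 19.7 at 2 months. Of 9 other genes with a C1q domain 4 were tested, with a median of -0.07 and 0 called, the lowest p being those of Cbln1, a synapse organiser of the cerebellin family (-0.18 ± 0.13, adjusted p = 0.594), and C1qtnf1 (-0.12 ± 0.10, adjusted p = 0.631). Of 13 genes near the C1q cluster on the chromosome 10 were tested, with a median of -0.02 and 0 called, Epha8, the next gene beyond C1qa, being at -0.05 ± 0.13 (adjusted p = 0.893). Id3 (-0.31 ± 0.13, adjusted p = 0.331) and Hnrnpr (0.20 ± 0.10, adjusted p = 0.428) had the lowest p of these.

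**Figure D3:**
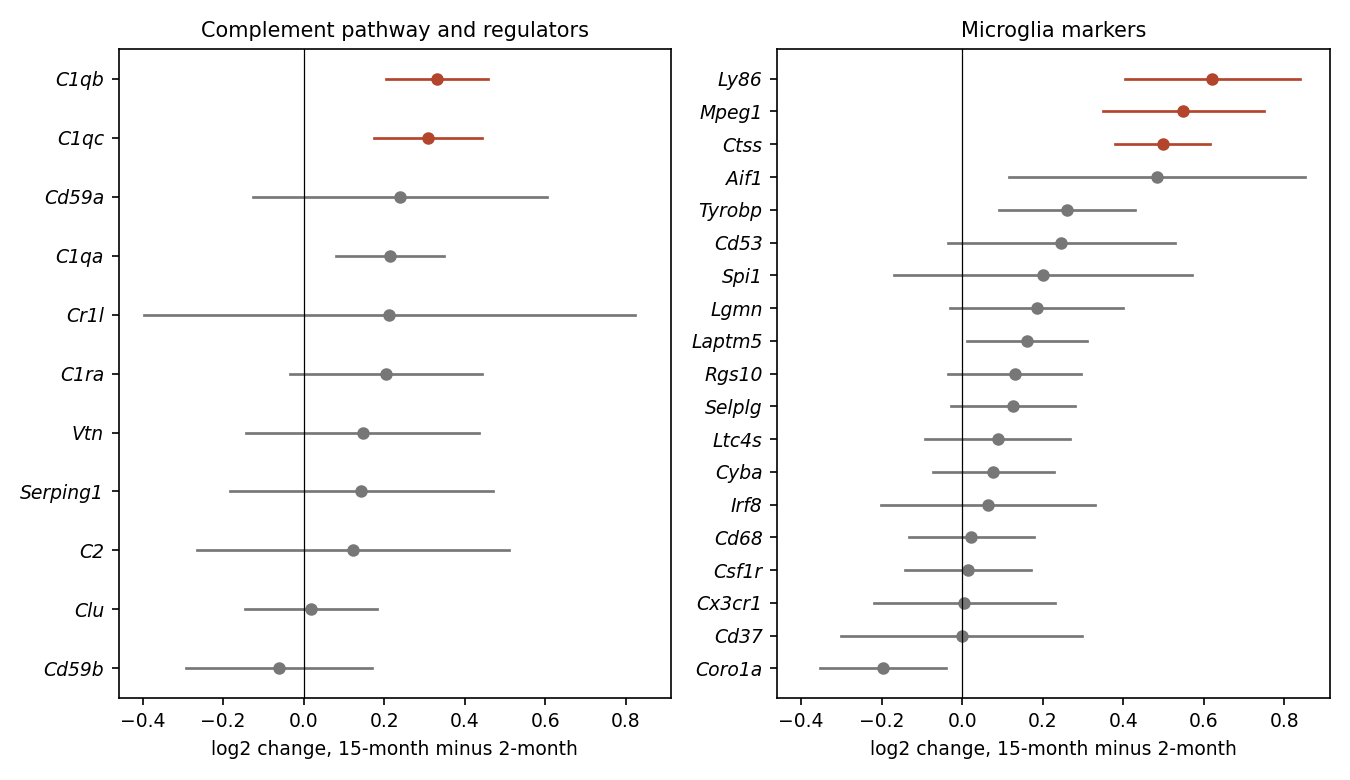
Log2 change with age (15-month minus 2-month, on log2(signal + 16)) with its 95% interval for 11 complement genes and 19 microglia markers bright enough to be tested; red marks a limma adjusted p under 0.05. C1qb and C1qc are called on the left, and Ly86, Mpeg1 and Ctss on the right, while Csf1r and Cx3cr1 lie near 0.

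Some microglia markers rose at 15 months. Of 26 markers with a probe set of their own 19 were tested, of which 3 were called higher and 0 lower. Of the 19 markers 17 had changes above 0 and the median was 0.13. Of all 7453 probe sets tested 0.335% were called higher and 44.99% had changes above 0. Ctss rose by 0.50 ± 0.06 on the log2 scale (limma adjusted p = 9.34e-06). Mpeg1, which encodes a macrophage perforin, rose by 0.55 ± 0.10 (adjusted p = 0.00494), and Ly86, a partner of the receptor Cd180, by 0.62 ± 0.11 (adjusted p = 0.00397). The 2 markers below 0 were Coro1a (-0.20 ± 0.08, limma adjusted p = 0.282) and Cd37 (-0.001 ± 0.15, adjusted p = 0.998). Coro1a read 858 ± 116 at 15 months and 985 ± 123 at 2 months. The markers most used to count microglia differed little or not past the test, with 0.01 ± 0.08 for Csf1r (adjusted p = 0.954), 0.01 ± 0.11 for Cx3cr1 (0.990) and 0.48 ± 0.18 for Aif1, also known as Iba1 (0.258), a dim gene at 131 ± 31.7 against 91.6 ± 35.3. The signs of Csf1r and Cx3cr1 turned in some settings. The summed signal of the 19 markers ran from 8935 over a median of 9612 to 10228 at 2 months and from 10160 over 11007 to 11936 at 15 months. Such a sum weighs bright genes most. In it Ctss went from 1725 ± 153 at 2 months to 2443 ± 219 at 15 months, and Csf1r from 1165 ± 166 to 1174 ± 134. In whole tissue more microglia and more C1q transcript per microglial cell cannot be told apart.

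Set against these markers on the same array, the differences of the bright C1q probe sets were smaller. The mean of the 19 markers, on log2(signal + 16), was 8.58 ± 0.06 (SD) in the 2-month and 8.76 ± 0.07 in the 15-month mice. C1qb minus that mean went from 1.44 ± 0.10 to 1.58 ± 0.13, a shift of 0.15 (exact two-sided permutation p = 0.0112, adjusted p = 0.0447 over 4 probe sets), with 12 of 14 mice of 15 months above the 2-month mean. This call was fragile: it held when 15-month replicate 3, 5 or 6 was left out, or 2-month replicate 4, 7 or 9, with adjusted p of 0.0117 to 0.0447, and was lost without any 1 of the other 17 mice (0.0505 to 0.127). It was also lost with the median of the markers in place of their mean (0.129). C1qc minus the mean went from 2.23 ± 0.15 to 2.36 ± 0.15 (shift 0.12, exact permutation p = 0.0694, adjusted p = 0.139). That shift passed without 2-month replicate 7 (0.0447) and with the 4 arrays of lowest 99th percentile left out (0.0362). C1qa minus the mean was 2.08 ± 0.16 at 2 months and 2.11 ± 0.12 at 15 months (shift 0.03, exact permutation p = 0.633, adjusted p = 0.633). The dim C1qb probe set had a shift of -0.18 (exact permutation p = 0.273, adjusted p = 0.364).

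**Figure D4:**
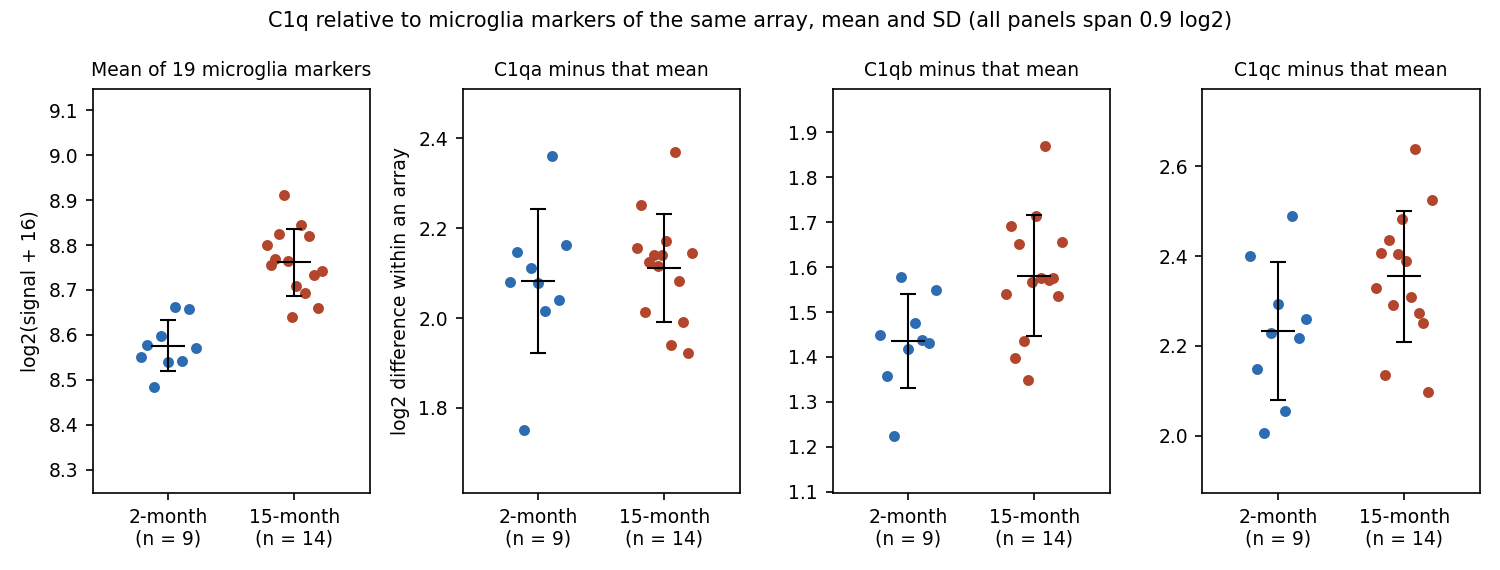
Mean log2(signal + 16) of 19 microglia markers, and C1qa, C1qb and C1qc minus that mean on the same array (log2 difference), by age; each point is 1 mouse, bars give the mean and SD, and the vertical axes do not start at 0 but all span 0.9. The marker mean is higher at 15 months, 8.76 against 8.58; relative to it C1qb is higher by 0.15, C1qc by 0.12 and C1qa by 0.03.

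Between mice of 1 age the marker mean followed the chains unevenly. With C1qb it had r = 0.79 at 2 months (exact permutation p = 0.0110, adjusted p = 0.0664) and rho = 0.73 (exact permutation p = 0.0311, adjusted p = 0.165), with r = 0.71 without replicates 3 and 4. At 15 months its r with C1qb was 0.22 (permutation p = 0.454, adjusted p = 0.535). With C1qa it had r = 0.46 at 15 months (permutation p = 0.0994, adjusted p = 0.166) and 0.47 at 2 months (exact permutation p = 0.215, adjusted p = 0.307), and with C1qc 0.31 (permutation p = 0.277, adjusted p = 0.370) and 0.21 (exact permutation p = 0.589, adjusted p = 0.620).

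Genes of microglial phagocytosis and activation gave no call: of 30 with a probe set 17 were tested. Of the 17 genes 15 had changes above 0, against 44.99% of all probe sets tested, and the median of the 17 was 0.11. The lowest p were those of Ctsz, a cathepsin (0.46 ± 0.11, limma adjusted p = 0.0508, which passed in some settings), and Tyrobp. Cst7, a marker of activated microglia, was below the filter at 26.6 ± 16.7 and 19.1 ± 4.34, as were Axl, Lgals3 and Tnf. Of 13 myeloid transcription factors and colony-stimulating factor signals 9 were tested with a median of 0.01 and 0 called. Spi1, which encodes PU.1, was at 108 ± 30.6 and 94.1 ± 34.1 (log2 difference 0.20 ± 0.18, adjusted p = 0.688), and Mef2a had one of 0.12 ± 0.08 (adjusted p = 0.558).

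Among the tested markers of other cells that can carry C1q or differ between dissections, only S100b of astrocytes was called. Of 6 genes of border macrophages 2 were tested and 0 called, and Mrc1, Lyve1, Pf4 and Cbr2 were below the filter. The summed signal of the 2 tested genes was 237 to 394 at 15 months and 274 to 345 at 2 months. The sums given below also cover tested genes only. Of 18 genes of blood monocytes, neutrophils and lymphocytes 5 were tested and 0 called, with sums of 459 to 1237 and 615 to 906. The choroid plexus list (3 of 6 tested, 0 called, median 0.77) summed to 389 to 11414 at 15 months and 254 to 10446 at 2 months. That of meninges and fibroblasts (11 of 15 tested, 0 called, median 0.17) summed to 7867 to 29567 and 10418 to 22949. Of 10 astrocyte markers 9 were tested and 1, S100b, was called higher (median 0.17, sums 20156 to 33497 and 21953 to 27132). Changes were above 0 for 8 of the 9 and below 0 for 1, with 44.99% above 0 over all probe sets tested. Gfap, at 0.45 ± 0.11, did not pass (limma adjusted p = 0.0851). Of red blood cell, oligodendrocyte and endothelial genes 2 of 4, 7 of 8 and 11 of 12 were tested, and 0 were called. The 12 hippocampal neuron markers tested had a median of -0.13, with 4 above 0, 8 below 0 and 0 called. The part of these cell types in the C1q difference was not tested.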

How the data were processed

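The deposited values are MAS5 signals, linear intensities of each probe set on each array, per the submitters' processing notes, which give no version or settings here. The array files were used without further normalisation. Groups follow the age in the labels, and replicate numbers only name the mice. The platform annotation named the probe sets, and all 4 C1q probe sets matched the RefSeq table (GRCm38.p6). Signals were analysed as log2(signal + 16). The 66 control probe sets and those with a mean level under the 40th percentile (a signal of 91.7) were left out, which left 7453. The ages were compared with limma 3.58.1 in R 4.3.3 (two-sided, eBayes with trend and robust options) and p-values adjusted by Benjamini-Hochberg over all probe sets tested. The fit was tested on simulated data. A fold is 2 to the power of the log2 change, which understates changes of dim genes. Each listed gene stands for its brightest probe set with 1 symbol.

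Single values were tested with exact permutation over 817190 regroupings, and correlations with 100000 permutations (14 mice) or all of them (9 mice), using scipy 1.17.1, pandas 2.3.3 and numpy 2.4.6 under Python 3.11.15 (figures: matplotlib 3.10.9). The genes named are the C1q probe sets, the called or otherwise 2 lowest-p members of each list, fixed microglial genes and C3, and the 5 genes most like each chain; others are examples named after their values were seen. C3 and Trem2 had no probe set matched here. The members, lists and alternatives were chosen with earlier results of these data known. The number of arrays limits precision.
Alternatives were the pseudocount, the normalisation, the filter, the arrays and mice included, an array covariate and another test.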

Additional observations from a re-analysis of the deposited data

Results flagged for a closer look

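Among the 9 mice of 2 months, 5 of 15 C1q measures examined had 1 mouse far from the others by Dixon's test, all of them replicate 3; chance flags about 1 group in 20, and the measures share probe sets. C1qa read 1188.8 in that mouse, with the next lowest at 1554.9, and the dim C1qb probe set read 265.5, with the next highest at 175. The differences that involve the dim probe set followed, with 2.10 for C1qa minus the dim C1qb probe set, 1.57 for C1qb minus it and -2.35 for it minus C1qc, all on the log2 scale. C1qb and C1qc were also lowest in that mouse, at 820 and 1421.4, but within the limit of the test. Without it the log2 changes with age were 0.16 for C1qa, 0.29 for C1qb (limma adjusted p = 0.0187) and 0.27 for C1qc (limma adjusted p = 0.0649).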

How the results depend on the processing

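C1qb passed with each of the 23 mice left out and in all 11 other settings, which include a Mann-Whitney test and again the omission of 15-month replicate 13, with log2 changes of 0.29 to 0.36. C1qa passed in none of these. Of all probe sets 28 were called, 20 to 39 with 1 mouse left out, and 60 (39 higher, 21 lower) with the 25th percentile of the array as covariate. The change of C1qc was 0.27 to 0.34 with 1 mouse left out, and 0.31 with the Mann-Whitney test (adjusted p = 0.0536), in which 777 probe sets, none of C1q, had ties. The dim C1qb probe set ran from -0.049 to 0.094 with 1 mouse left out. It was at -0.032 without 15-month replicate 13 and at -0.047 without the 4 arrays of lowest 99th percentile (15-month replicates 3 and 12, 2-month replicates 7 and 8). The filter at the 60th percentile left it untested. C1qb minus the microglia mean was 0.14 with a pseudocount of 1 (adjusted p = 0.0707) and 0.14 with quantile normalisation (0.0539). It was 0.15 without 15-month replicate 13 (0.0505), 0.15 with the median of the markers (0.129) and 0.16 with 3 markers only (0.213). With 1 mouse left out it was 0.12 to 0.16, that of C1qa -0.013 to 0.063 and that of C1qc 0.094 to 0.15, or 0.18 without the 4 arrays. C1qa minus C1qc changed by -0.11 to -0.075, and C1qb minus C1qc by -0.0085 to 0.051 with 1 mouse left out and -0.023 without the 4 arrays. Of the 20 correlations 1 passed, 0 to 3 with 1 mouse left out, 0 without 15-month replicate 13 and 0 without the 4 arrays.

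Signs turned for some values near 0. With 1 mouse left out the log2 change was -0.024 to 0.052 for Csf1r, -0.043 to 0.053 for Cx3cr1, -0.041 to 0.041 for Mrpl20 and -0.019 to 0.084 for Phc2. Csf1r was at -0.0065 without 15-month replicate 13, and Cx3cr1 at -0.040 and Eif3l at 0.00020 without the 4 arrays. With the covariate Cx3cr1 was at -0.022 and Mrpl20 at -0.0090. At 15 months r of the dim C1qb probe set was -0.48 to 0.046 with C1qa, -0.35 to 0.046 with C1qc and -0.23 to 0.31 with the microglia mean, the first 2 being 0.046 and 0.046 without replicate 13. At 2 months r was -0.074 to 0.85 for C1qa with C1qb, -0.25 to 0.67 for C1qb with C1qc, -0.17 to 0.70 for C1qa with the microglia mean and -0.49 to 0.42 for C1qc with it, the lowest in each case without replicate 3. The causes were not tested. No paired analysis was possible because replicate numbers only name the mice.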
